A study of Mus musculus with 12 samples.

Results

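Fatty acid uptake, oxidation and ketogenesis were examined through 37 genes in livers of F1 males whose sires had been given DCHP or vehicle. The genes were taken by symbol from a list that was chosen with earlier results of these data known. All 37 were found among the 21683 genes of the count table, and all 37 passed the filter on low counts, which kept 12459 genes. Their rounded counts were at least 77 in every liver, and at least 413 for every gene other than Pdk4. The sires were wild-type C57BL/6J males that received corn oil vehicle (paternal control) or the plasticizer dicyclohexyl phthalate (DCHP), both by gavage, for 4 weeks from 8 weeks of age, and were mated with unexposed wild-type females. Their sons, also wild type and not exposed themselves, were weaned at 3 weeks and fed a Western-type high-fat diet for 9 weeks, and food was withheld before tissue collection. RNA-seq was performed on 6 livers per group, called control 1 to 6 and DCHP 1 to 6 by their replicate numbers. Which animals shared a litter or sire is not known here, and p-values therefore reflect only how much these livers varied. Some high-fat-fed F1 males of the study received insulin shortly before euthanasia, and whether the sequenced livers came from such animals is not given either.

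Liver takes up fatty acids from plasma, activates them to acyl-CoA, and either esterifies them or burns them. Long-chain acyl-CoA enters mitochondria through the carnitine shuttle and is shortened by repeated rounds of dehydrogenation, hydration, a further dehydrogenation and thiolysis, with electrons passed to the respiratory chain through the electron transfer flavoprotein. Peroxisomes shorten very long, branched and bile acid side chains. During fasting the liver converts the acetyl-CoA into ketone bodies for other organs. Many of these genes are targets of the nuclear receptor PPARα, which some phthalate metabolites activate when animals are exposed directly.

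Total estimated counts were between 23794728 and 30445338 per library (control against DCHP, exact two-sided permutation p = 0.827, adjusted p = 0.952 over 3 library measures). Hepatocyte markers were abundant in every library, with a summed level of 68687 to 95047 CPM (counts scaled to library size). Several lists of other cells and of stress responses differed between the groups, and their part in the results below was not tested. The 18 acute-phase genes summed to 14712 to 15503 CPM in controls and to 14885 to 38890 CPM with paternal DCHP, above every control in 5 of 6 livers and highest in DCHP 4, with all 18 log2 fold changes above 0 and 4 called higher by edgeR. The 20 immediate-early genes summed to 388 to 660 CPM in controls and to 434 to 2680 CPM with paternal DCHP, above every control in 3 livers and highest in DCHP 1, with 5 called higher. The 15 Kupffer cell markers summed to 350.4 to 482 CPM and to 346 to 860.3 CPM, above every control in 3 DCHP livers and highest in DCHP 5, with 14 log2 fold changes above 0 and 0 called by edgeR. Neutrophil markers summed to 3.53 to 8.03 CPM in controls and to 7.44 to 14.2 CPM with paternal DCHP, above every control in 4 livers, with 1 of 4 tested called higher and Ly6g at 0 in every library. Adipocyte markers summed to 2072 to 2989 CPM and to 1119 to 2630 CPM, below every control in 5 DCHP livers. Of the 4 adipocyte markers tested, 1 was called lower and 3 had log2 fold changes above 0. The 10 stellate cell markers summed to 226 to 296 CPM in controls and to 197 to 359 CPM with paternal DCHP, highest in DCHP 2. Of them, 9 had log2 fold changes above 0 and 0 were called by edgeR. The 10 sinusoidal endothelial markers summed to 239 to 294 CPM and to 237 to 309 CPM, with 6 above 0 and 0 called. Both sums were above every control in 3 DCHP livers and below every control in 1. Mitochondrial transcripts took 8.03% of counts in DCHP 5, against 5.22% to 6.98% in the other 11 libraries. In bulk liver RNA, a change in the number of cells of a type and a change in RNA per cell cannot be told apart.

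To ask whether paternal DCHP exposure was associated with altered expression of fatty acid oxidation genes in the offspring, the 37 genes were read from a test across all 12459 genes. A gene was called at a false discovery rate (FDR, the Benjamini-Hochberg adjusted p) under 0.1 with a fold change above 1.5, the thresholds of the study. Acsl4, an acyl-CoA synthetase with a preference for arachidonic acid, was the 1 called gene and rose, which is 1 of 37 against 1.28% of all genes tested in either direction and 0.963% called higher. No gene of the set was called lower by edgeR, DESeq2 or limma-voom, and 0.313% of all genes were called lower by edgeR. At an unadjusted edgeR p under 0.05, 6 of the 37 were lower, against 8.34% of all genes. At the same threshold 5 of the 37 were higher, against 10.6% of all genes. Below the fold threshold, Acox2 was higher and Bdh1 was lower at an adjusted p under 0.1, so that 3 of 37 passed this threshold alone (2 higher and 1 lower), against 3.84% of all genes (2.29% higher and 1.56% lower). The changes were small: 30 of the 37 log2 fold changes lay within 0.25 of 0. They leaned downwards, with 28 of 37 below 0 against 48.5% of all genes, and with a median of -0.14 against 0.01 over all genes tested.

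**Figure D1:**
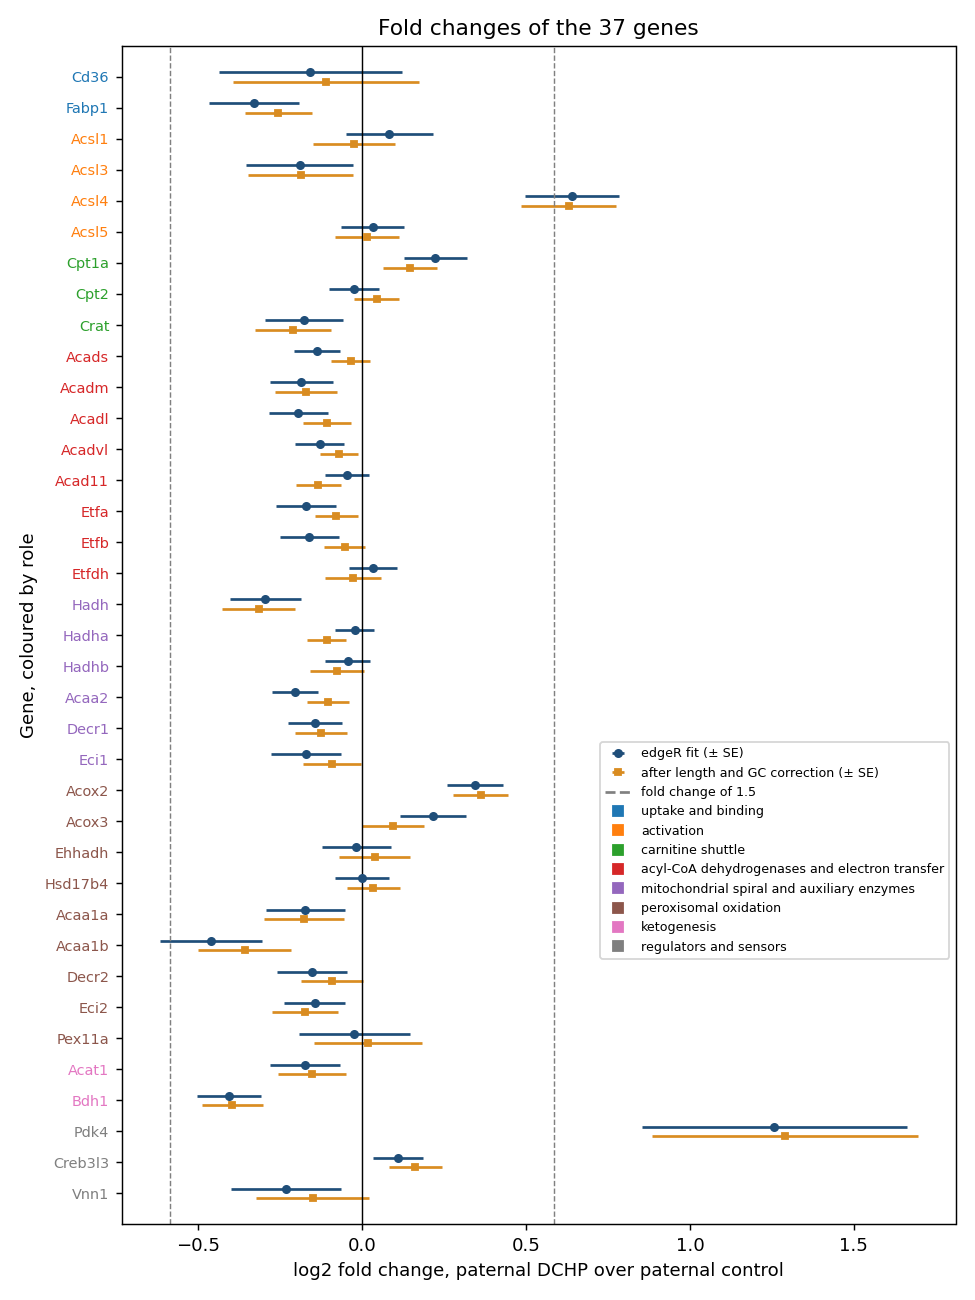
Log2 fold change of each of the 37 genes (paternal DCHP over paternal control, n = 6 livers each) with its standard error, from the edgeR fit (circles) and after correction of each library for gene length and GC content (squares). Gene names are coloured by role and dashed lines mark a fold change of 1.5. Acsl4 and Pdk4 lie beyond the dashed line on the right, and 28 of the 37 circles lie left of 0.

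The counts of the libraries differed in their relation to gene length, and these genes are shorter than most, with a median exonic length of 3703 bases against 4481 over all genes tested. Correction of each library for length and GC content left 26 of 37 log2 fold changes below 0, against 49% of all genes, with a median of -0.09. Length and GC content were corrected together, and their separate parts were not tested. Acsl4 stayed the 1 called gene (log2 fold change 0.63, edgeR adjusted p = 0.0657), against 0.971% of all genes after this correction.

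Acyl-CoA synthetases trap fatty acids in the cell by coupling them to coenzyme A. Acsl4 was at 57.0, 70.0 and 79.3 CPM in controls (lowest, median and highest) and at 74.6, 107 and 142 CPM with paternal DCHP. DCHP 3 alone lay within the control range, and the other 5 DCHP livers lay above it. Acsl4 had a log2 fold change of 0.64 ± 0.14 (SE, n = 6 each, edgeR adjusted p = 0.0535). This call was lost without control 3, 4, 5 or 6, with edgeR adjusted p from 0.103 to 0.124, and without DCHP 4 (0.101). Without DCHP 2, the liver with the highest level, the adjusted p stayed under 0.1 (0.0783 by edgeR) but the log2 fold change of 0.54 fell short of the fold threshold. DCHP 2 had a Kupffer marker sum of 409 CPM, inside the control range. Acsl4 was 127 CPM in DCHP 5, which had the highest Kupffer sum. The stellate cell marker sum was highest in DCHP 2, at 359 CPM, against 226 to 296 CPM in controls. In DCHP 1, Acsl4 was 94.2 CPM, with Kupffer and stellate sums of 378 and 197 CPM. The same values were 74.6, 517 and 311 CPM for DCHP 3. They were 120, 346 and 245 CPM for DCHP 4, and 85.7, 617 and 353 CPM for DCHP 6. Acsl4 was still called without DCHP 5 (0.59, edgeR adjusted p = 0.0991) but not without both control 1 and DCHP 5 (0.60, edgeR adjusted p = 0.128). The part of Kupffer, stellate or other cells in the change of Acsl4 was not tested.

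Acsl4 lies on the X chromosome, and its RefSeq promoter window is shown because it is the gene that passed the test. The window covers 250 bases before to 50 bases after the annotated start (chrX:142390486-142390785, minus strand, GRCm38.p6), has a GC content of 71.7%, and the capitals mark the first 50 transcribed bases.
Acsl4: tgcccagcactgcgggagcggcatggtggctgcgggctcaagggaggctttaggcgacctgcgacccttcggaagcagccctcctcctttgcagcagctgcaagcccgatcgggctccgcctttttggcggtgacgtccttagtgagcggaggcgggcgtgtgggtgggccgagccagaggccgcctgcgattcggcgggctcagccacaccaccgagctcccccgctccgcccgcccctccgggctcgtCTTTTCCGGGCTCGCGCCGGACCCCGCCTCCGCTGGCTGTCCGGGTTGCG

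The other synthetases did not pass the test. Acsl1, which encodes the main hepatic synthetase of this family, averaged 1539 ± 142 CPM in controls and 1630 ± 351 CPM in the DCHP group (SD, n = 6 each), for a log2 fold change of 0.08 ± 0.13 (SE; adjusted p = 0.764 by edgeR). Its 6 DCHP livers spread from 1097 CPM in DCHP 2 to 2027 CPM in DCHP 5, on both sides of the control range. Acsl5, an isoform of mitochondria and endoplasmic reticulum, and Acsl3, an isoform of lipid droplets, had log2 fold changes of 0.03 and -0.19 with adjusted p of 0.882 and 0.542 by edgeR. After length and GC correction the log2 fold change of Acsl1 was -0.03. Per kilobase of exon, Acsl4 made up 5.46% ± 0.65 of the summed level of the 4 synthetases in controls and 8.05% ± 2.48 with paternal DCHP (SD, n = 6 each). Acsl1 made up 62.7% and 61.4%, so that Acsl4 stayed a minor part of the summed level. The lengths used join all annotated exons, 10483 bases for Acsl1 and 5405 bases for Acsl4. Their longest coding transcripts have 3897 and 5280 bases, so that these shares depend on the length chosen.

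Cd36, a fatty acid translocase of the plasma membrane, and Fabp1, the abundant fatty acid binding protein of hepatocyte cytosol, handle fatty acids before activation. Fabp1 was at 2305, 3457 and 3999 CPM in controls (lowest, median and highest) and at 1972, 2688 and 3088 CPM with paternal DCHP. All 6 DCHP livers were below the control mean, but only DCHP 5 was below the lowest control, which was control 1. Fabp1 had a log2 fold change of -0.33 ± 0.14 (SE), which did not pass (edgeR adjusted p = 0.212). After length and GC correction it was -0.26 (edgeR adjusted p = 0.230). Cd36 was at 44.4, 128 and 159 CPM in controls and at 75.9, 87.6 and 171 CPM with paternal DCHP, and its log2 fold change was -0.16 ± 0.28 (edgeR adjusted p = 0.790). Cd36 varied between animals within each group far more than between the groups. Its level of 44.4 CPM in control 1 stood apart from 118 to 159 CPM in the other controls.

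Fabp1 is a textbook PPARα target, so promoter windows were searched for the direct repeat that PPARα binds together with RXR. The direct repeat DR1, here 2 copies of AGGNCA with any base between them and N for any base, was searched on both strands. RefSeq windows were found for 31 of the 37 genes, 35 windows in all. Fabp1 was the 1 gene with a match (AGGCCATAGGTCA on the strand opposite to the gene, chr6:71199812-71199824), whereas 0.381% of all 32851 windows held one. The stricter form with 2 copies of AGGTCA was in 0 of the 35 windows and in 0.04% of all windows. A match of letters is a description and not evidence of binding. The Fabp1 window (chr6:71199629-71199928, plus strand, GRCm38.p6) is shown with the match in capitals.
Fabp1: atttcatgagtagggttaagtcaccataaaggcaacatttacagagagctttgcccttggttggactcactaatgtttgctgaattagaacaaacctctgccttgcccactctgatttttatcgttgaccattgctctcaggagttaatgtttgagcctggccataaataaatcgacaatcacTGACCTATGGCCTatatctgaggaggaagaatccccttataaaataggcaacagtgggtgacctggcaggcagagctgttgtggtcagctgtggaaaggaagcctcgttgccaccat

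The carnitine shuttle carries long-chain acyl groups into mitochondria. Cpt1a encodes the rate-limiting carnitine palmitoyltransferase of the outer membrane, and was at 557, 618 and 701 CPM in controls (lowest, median and highest) and at 629, 719 and 878 CPM with paternal DCHP. All 6 DCHP livers were above the control mean and 3 of them were above the highest control. Cpt1a had a log2 fold change of 0.22 ± 0.10 (SE), which did not pass (edgeR adjusted p = 0.224). After length and GC correction it was 0.15. Cpt2, which reverses the reaction on the inner membrane, had a log2 fold change of -0.03 ± 0.08, and Crat, the short-chain carnitine acetyltransferase, of -0.18 ± 0.12 (edgeR adjusted p = 0.882 and 0.432). After length and GC correction Cpt2 had 0.04.

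The first dehydrogenation of each mitochondrial round is shared by enzymes that differ in the chain length they prefer, and their electrons pass through Etfa, Etfb and Etfdh. Of the 8 genes with this role, 7 had log2 fold changes below 0, from -0.20 for Acadl, and Etfdh had 0.03, with 0 called by edgeR, DESeq2 or limma-voom and 1 at an unadjusted edgeR p under 0.05, against 18.9% of all genes. Acadl, the long-chain dehydrogenase, was at 215, 240 and 256 CPM in controls (lowest, median and highest) and at 154, 217 and 221 CPM with paternal DCHP. DCHP 5 stood apart at 154 CPM, and the other 5 DCHP livers lay between 212 and 221 CPM, close to control 1 and control 2. Its log2 fold change of -0.20 ± 0.09 did not pass (SE, edgeR adjusted p = 0.260). Acadm, the medium-chain dehydrogenase, was at 364, 421 and 454 CPM in controls and at 270.1, 387 and 401 CPM with paternal DCHP, and its log2 fold change was -0.19 ± 0.10 (SE; adjusted p = 0.308 by edgeR). All 6 DCHP livers were below the control mean of Acadm, and DCHP 5 was again the lowest. Acads, Acadvl, Etfa and Etfb were likewise below their control means in all 6 DCHP livers, with log2 fold changes from -0.13 to -0.17 and edgeR adjusted p from 0.297 to 0.356. Acad11, which handles hydroxylated and long-chain substrates, had -0.05 (edgeR adjusted p = 0.736). After length and GC correction the values of this role moved both ways: they were -0.04 for Acads, -0.11 for Acadl, -0.07 for Acadvl, -0.08 for Etfa, -0.05 for Etfb and -0.03 for Etfdh, whereas Acad11 had -0.13.

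The later steps of the mitochondrial round are carried by Hadh and Acaa2 for shorter chains and by the trifunctional protein, whose subunits are encoded by Hadha and Hadhb, for long chains. Hadh, the short-chain hydroxyacyl-CoA dehydrogenase, was at 334, 429 and 463 CPM in controls (lowest, median and highest) and at 266, 342 and 417 CPM with paternal DCHP. Of the DCHP livers, 3 were below the lowest control, which was control 1. Hadh had a log2 fold change of -0.29 ± 0.11 (SE, edgeR adjusted p = 0.166). After length and GC correction it was -0.32 (edgeR adjusted p = 0.170). Acaa2, the mitochondrial thiolase, was at 844, 915 and 995 CPM in controls and at 737, 782 and 867 CPM with paternal DCHP, with 4 DCHP livers below the lowest control. Its log2 fold change was -0.20 ± 0.07 (SE, edgeR adjusted p = 0.147) and was -0.10 after length and GC correction. The auxiliary enzymes Decr1 and Eci1, which remove double bonds of unsaturated chains, had log2 fold changes of -0.14 and -0.17 (edgeR adjusted p = 0.356 and 0.403), and Eci1 had -0.09 after this correction.

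Hadhb varied least between the controls and Hadha least between the DCHP livers. Hadha averaged 187 ± 7.23 CPM in controls and 184 ± 9.64 CPM in the DCHP group, and Hadhb at 232 ± 6.29 and 225 ± 20.1 CPM (SD, n = 6 each). Their log2 fold changes were -0.02 ± 0.06 and -0.04 ± 0.07 (SE, edgeR adjusted p = 0.864 and 0.758), and -0.11 and -0.08 after length and GC correction. They are arranged head to head on chromosome 5, with annotated RefSeq starts 273 bases apart, so that their promoter windows overlap by 228 bases. The Hadhb window (chr5:30155003-30155302, plus strand, GRCm38.p6) is shown because of this overlap, with the bases that also belong to the Hadha window in capitals.
Hadhb: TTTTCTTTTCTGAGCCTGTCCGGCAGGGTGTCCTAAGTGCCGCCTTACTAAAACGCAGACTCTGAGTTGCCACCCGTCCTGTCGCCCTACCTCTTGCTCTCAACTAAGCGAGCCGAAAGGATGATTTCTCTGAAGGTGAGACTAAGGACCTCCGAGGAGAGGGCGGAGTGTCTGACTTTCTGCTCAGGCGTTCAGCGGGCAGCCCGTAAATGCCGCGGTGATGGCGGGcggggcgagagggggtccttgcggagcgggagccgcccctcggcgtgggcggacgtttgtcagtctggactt

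Among the 9 peroxisomal genes, the acyl-CoA oxidases stood on one side and a thiolase on the other, with 0 called by edgeR, DESeq2 or limma-voom and 3 at an unadjusted edgeR p under 0.05, against 18.9% of all genes. Acox2, the oxidase of branched chains and bile acid precursors, was at 153, 166 and 192 CPM in controls (lowest, median and highest) and at 191, 213 and 245 CPM with paternal DCHP. DCHP 3, at 191 CPM, was just below control 2, at 192 CPM, and the other 5 DCHP livers were above every control. Acox2 had a log2 fold change of 0.35 ± 0.09 (SE, edgeR adjusted p = 0.0710), under the fold threshold. Its adjusted p was under 0.1 in 14 of 25 alternatives, counting those that changed only a threshold and kept the main adjusted p. It exceeded 0.1 without control 1, 3, 4, 5 or 6 or without DCHP 1 or 4, up to 0.157 by edgeR. Acox3, a related oxidase at a lower level, had 0.22 ± 0.10 (edgeR adjusted p = 0.260), and 0.09 after length and GC correction.

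Acaa1b, a peroxisomal thiolase and classic target of peroxisome proliferators in rodents, was at 2105, 3411 and 3695 CPM in controls (lowest, median and highest) and at 1655, 2262 and 3096 CPM with paternal DCHP. Control 1 lay among the DCHP livers, and DCHP 6 lay among the other controls. Acaa1b had a log2 fold change of -0.46 ± 0.16 (SE, edgeR adjusted p = 0.144). Without control 1 it was -0.56 (edgeR adjusted p = 0.0851) and without DCHP 6 it was -0.55 (0.0773), both under the fold threshold. After length and GC correction Acaa1b had -0.36 (edgeR adjusted p = 0.224). Its paralog Acaa1a had -0.17 ± 0.12 (edgeR adjusted p = 0.455). Of the 31-base windows of the Acaa1b transcript, 57.4% also occur in other genes, mainly Acaa1a, so that the split of reads between both is uncertain. Ehhadh and Hsd17b4, the L- and D-bifunctional enzymes, had log2 fold changes of -0.02 ± 0.11 and 0.00 ± 0.08 (edgeR adjusted p = 0.946 and 0.999). Ehhadh had 492 ± 67.4 CPM in controls and 486 ± 59.1 CPM in the DCHP group (SD, n = 6 each). Pex11a, a peroxisome division gene that PPARα ligands induce, had -0.02 ± 0.17 (edgeR adjusted p = 0.955), and Decr2 and Eci2, auxiliary enzymes, had -0.15 each. After length and GC correction Ehhadh had 0.04, Hsd17b4 0.03, Pex11a 0.02 and Decr2 -0.09.

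**Figure D2:**
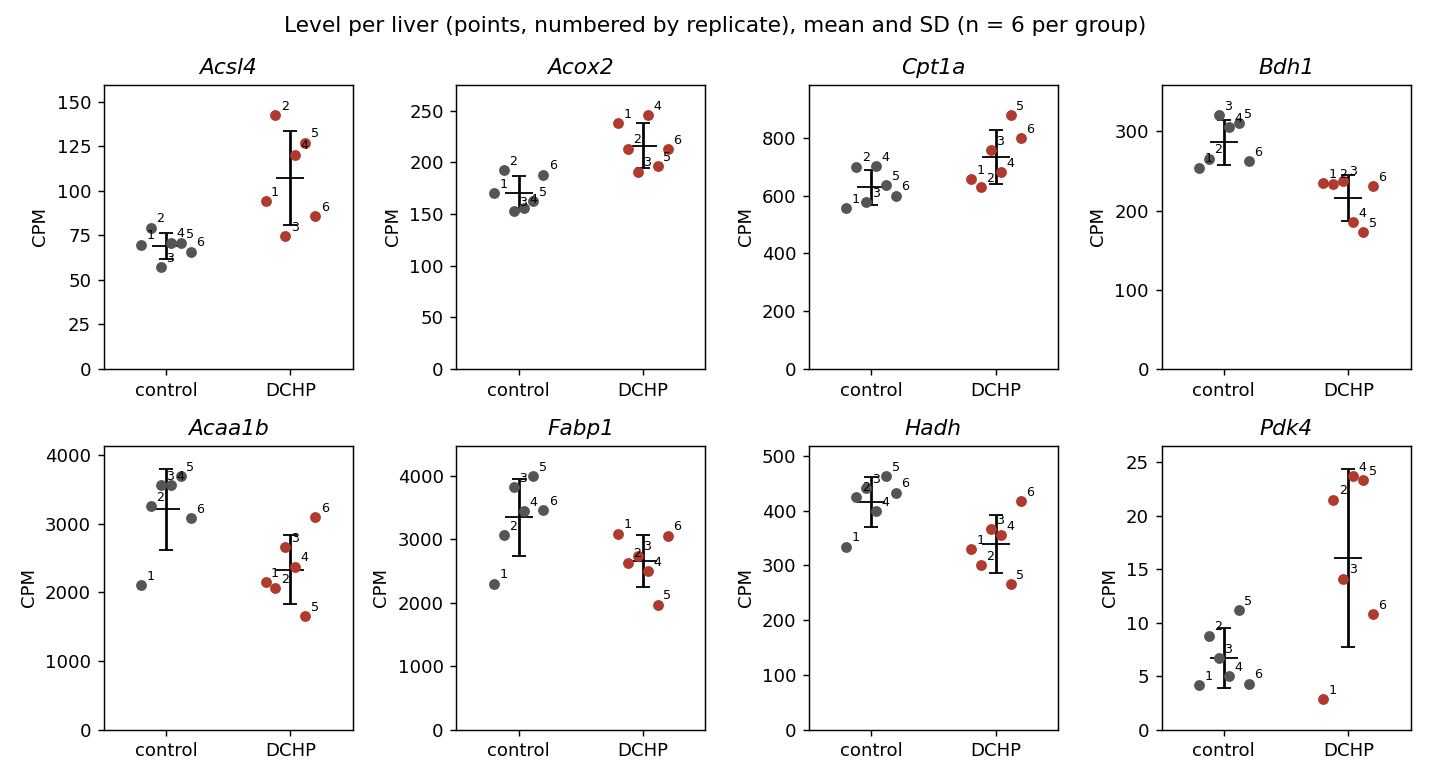
CPM of 8 genes in each liver, with points numbered by replicate, and the mean and SD of each group (n = 6). Bdh1 is the 1 gene whose groups do not overlap, with a lowest control of 254 CPM and a highest DCHP liver of 237 CPM. Pdk4 is low in DCHP 1 and higher in the other 5 DCHP livers.

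Ketone bodies are made in liver mitochondria and the last step is catalysed by Bdh1, which reduces acetoacetate to 3-hydroxybutyrate. Bdh1 was at 254, 285 and 320 CPM in controls (lowest, median and highest) and at 173, 232 and 237 CPM with paternal DCHP. All 6 DCHP livers were below every control, which made Bdh1 the 1 gene of 37 whose groups did not overlap, against 2.14% of all genes (0.907% with the DCHP group above and 1.24% with it below). The log2 fold change was -0.41 ± 0.10 (SE, edgeR adjusted p = 0.0670), equal in sign in every alternative, from -0.44 to -0.35, and under the fold threshold. After length and GC correction the log2 fold change of Bdh1 was -0.40 (edgeR adjusted p = 0.0700). The adjusted p of Bdh1 was under 0.1 in 16 of 25 alternatives, counting those that changed only a threshold and kept the main adjusted p. It exceeded 0.1 without control 3, 4, 5 or 6 or without DCHP 4, up to 0.145 by edgeR, and was 0.0995 without DCHP 5. Acat1, the mitochondrial acetoacetyl-CoA thiolase, averaged 460.3 ± 27.6 CPM in controls and 408 ± 66.0 CPM in the DCHP group (SD, n = 6 each), with a log2 fold change of -0.17 ± 0.11 (SE; adjusted p = 0.391 by edgeR). DCHP 5 stood apart at 274 CPM of Acat1, and the other 5 DCHP livers lay between 425 and 448 CPM.

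RefSeq lists 2 start sites for Bdh1. The upstream window (chr16:31422047-31422346, plus strand, GRCm38.p6) is shown because Bdh1 separated the groups, with the first 50 transcribed bases in capitals. Its GC content is 48.3%, below that of the Acsl4 window.
Bdh1: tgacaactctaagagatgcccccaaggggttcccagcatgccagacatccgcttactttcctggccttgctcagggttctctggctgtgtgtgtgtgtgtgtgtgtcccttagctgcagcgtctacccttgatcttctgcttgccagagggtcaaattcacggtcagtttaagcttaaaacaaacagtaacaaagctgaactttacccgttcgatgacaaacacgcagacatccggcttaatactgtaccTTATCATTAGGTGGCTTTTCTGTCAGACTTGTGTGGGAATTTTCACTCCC

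The remaining genes regulate or sense fatty acid use. Pdk4, which switches off pyruvate dehydrogenase and spares glucose when fatty acids are burned, was the least abundant and most variable gene of the set. It was at 4.17, 5.83 and 11.2 CPM in controls (lowest, median and highest) and at 2.82, 17.8 and 23.7 CPM with paternal DCHP. DCHP 2, 3, 4 and 5 were above every control, DCHP 6 was inside the control range, and DCHP 1 had the lowest level of all 12 livers. Pdk4 had a log2 fold change of 1.26 ± 0.40 (SE, edgeR adjusted p = 0.126) and did not pass. It passed by DESeq2 (1.26, adjusted p = 0.0819) and by edgeR without DCHP 1 (1.48, adjusted p = 0.0575). DCHP 1 was also the liver with the highest immediate-early sum, whose part in this value was not tested. Creb3l3, a liver transcription factor that acts with PPARα in fasting, had a log2 fold change of 0.11 ± 0.08, and the pantetheinase gene Vnn1 of -0.23 ± 0.17 (edgeR adjusted p = 0.461 and 0.466). Vnn1 had -0.15 after length and GC correction.

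**Figure D3:**
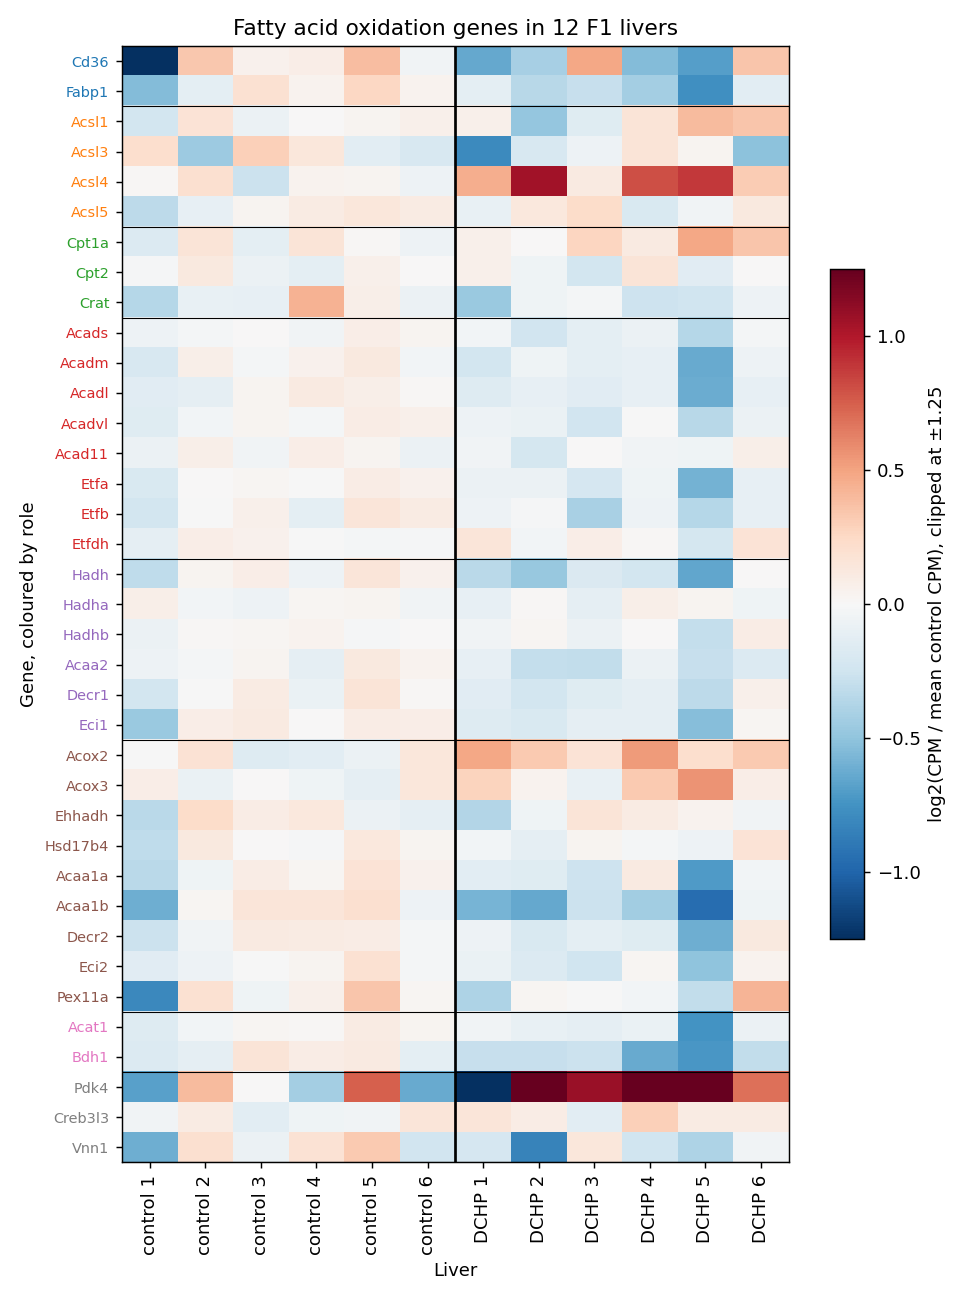
Level of each of the 37 genes (rows, grouped and coloured by role) in each of the 12 livers (columns), as log2 of CPM over the mean control CPM, with the colour scale clipped at both ends. Control 1, the lowest control for 29 genes, is blue in most rows. Pdk4 and Acsl4 are red in most DCHP livers.

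Single livers stood low or high for many of these genes at once, and effects of the animal and of its library cannot be told apart. Control 1 was the lowest control for 29 of the 37 genes, among them Cd36, Pex11a, Acaa1b, Ehhadh and Vnn1, and control 5 was the highest control for 19. DCHP 5 was the lowest DCHP liver for 18 genes and the lowest of all 12 livers for 17, while DCHP 6 was the lowest DCHP liver for 0 genes. The median over the 37 genes of log2 CPM minus each gene's mean was -0.15 in control 1 and 0.06 to 0.18 in the other controls. It was -0.25 in DCHP 5 and -0.05 to 0.07 in the other DCHP livers. The Spearman correlation of expression with gene length was taken across genes, with each gene centred on its mean. It was from -0.29 to 0.01 in controls and from -0.07 to 0.39 with paternal DCHP. The highest values were 0.39 in DCHP 5 and 0.30 in DCHP 3. The part of this relation in these levels was not tested. Without DCHP 5 the median log2 fold change over the 37 genes was -0.08, with 25 below 0. Without control 1 it was -0.16, with 29 below 0. In an alternative chosen after seeing the data, without both livers, it was -0.10 with 29 below 0.

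**Figure D4:**
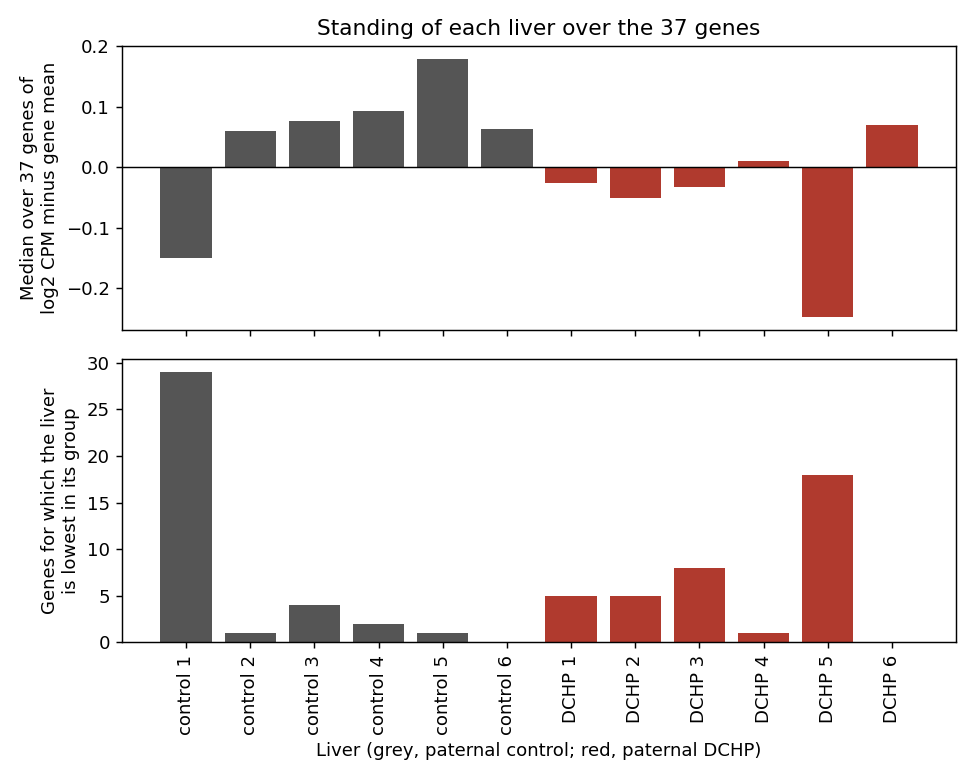
Standing of each of the 12 livers over the 37 genes. The upper bars give the median of log2 CPM minus the gene's mean over 12 livers, and the lower bars give the number of genes for which the liver was lowest in its own group of 6. Control 1 (29 genes) and DCHP 5 (18 genes) have the tallest lower bars.

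Other genes of fatty acid oxidation were read from a list of 61, all of which were tested. Of these, edgeR called 0, with 5 higher and 9 lower at an unadjusted p under 0.05, against 10.6% and 8.34% of all genes. Limma-voom called 0 and DESeq2 called 3 (Acot3, Acot4 and Acacb), against 1.28% of all genes by edgeR, 0.939% by limma-voom and 2.62% by DESeq2. The median log2 fold change of the list was -0.03, against 0.01 over all genes tested, with 33 of 61 below 0, against 48.5% of all genes. The genes that DESeq2 called are named after their values were seen. Sirt3, the mitochondrial deacetylase that acts on many of these enzymes, averaged 88.0 ± 9.05 CPM in controls and 65.7 ± 11.6 CPM in the DCHP group (SD, n = 6 each). Its log2 fold change of -0.42 ± 0.12 had an edgeR adjusted p of 0.0891 and was under the fold threshold. Fabp2, a fatty acid binding protein gene, had -0.39 ± 0.12 (edgeR adjusted p = 0.122), and its 6 DCHP livers, from 91.6 to 157 CPM, were below every control. No other gene of the list of 61 separated the groups, against 2.14% of all genes (1.24% with the DCHP group below). Acot3, a peroxisomal acyl-CoA thioesterase gene, had -1.39 ± 0.40 (edgeR adjusted p = 0.101), and Pnpla2, which encodes adipose triglyceride lipase, had 0.34 ± 0.12 (edgeR adjusted p = 0.144).

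Further genes outside the set were named after their values were seen, for their place in the pathway. Ppara itself had a log2 fold change of 0.15 ± 0.19 (SE, edgeR adjusted p = 0.697). The PPARα-responsive cytochromes Cyp4a10 and Cyp4a14 had log2 fold changes of 0.22 and -0.58 in opposite directions, and neither passed (edgeR adjusted p = 0.545 and 0.413).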

How the data were processed

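Liver RNA from 12 F1 male mice, 6 per group, was sequenced by the authors. The authors' deposited table holds estimated counts for each gene symbol, with values that need not be whole, on mm10 per the labels. Aligner, counting program, annotation and strand setting: not given in the sources used here. Samples were grouped by their titles. Counts were rounded, filtered with filterByExpr (minimum count 10), scaled by TMM and compared with the quasi-likelihood test of edgeR (version 4.0.16, R version 4.3.3) over 12 libraries with no covariate. P-values were adjusted over all 12459 genes. Standard errors were taken from the log2 fold change and the F statistic (its absolute value over root F). Levels are CPM with TMM scaling. Genes called had FDR under 0.1 and fold change above 1.5. Replicate libraries were all distinct (lowest chi-square per degree of freedom 16.6).

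Members and lists were chosen with earlier results of these data known. All 37 genes are accounted for, with levels per group for those called, those with an unadjusted p under 0.05, the smallest p of each role and preset anchors. Of the list of related genes, the called ones or otherwise the 4 with the smallest p are named. Positions, exonic length and GC content come from GENCODE M21 (GRCm38, the same build), and promoters from RefSeq. Transcript windows of 31 bases were compared with all GENCODE transcripts of other genes. Alternatives were RLE and upper-quartile factors, other filters and thresholds, DESeq2 (version 1.42.0), limma-voom (limma version 3.58.1), the replicate number as a block, length and GC correction with and without the block, and libraries left out. The fits were tested on simulated counts.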

Additional observations from a re-analysis of the deposited data

Results flagged for a closer look

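Of 74 groups of 6 livers examined (37 genes in each group), 8 held a liver whose gap to its neighbour exceeded Dixon's 95% critical value as a share of the group's range, and chance flags about 1 in 20 groups. All 8 were the lowest liver, which was control 1 or DCHP 5. In control 1, Cd36 stood at 44.4 CPM (118 to 159 CPM in the other controls), Etfa at 286 CPM (325 to 347 CPM), Eci1 at 120 CPM (165 to 178 CPM) and Hsd17b4 at 445 CPM (550 to 611 CPM). In DCHP 5, Acadm stood at 270.1 CPM (357 to 401 CPM in the other DCHP livers), Acadl at 154 CPM (212 to 221 CPM), Etfa at 217 CPM (283 to 314 CPM) and Acat1 at 274 CPM (425 to 448 CPM).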

How the results depend on the processing

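Genes called across the table numbered 159. They were 326 with DESeq2, 36 at an FDR under 0.05, 479 with no fold threshold, 62 without control 1 and DCHP 5 together, and from 7 to 233 with 1 library left out. Leaving out control 1 gave 105 calls, control 3 gave 7, control 4 gave 33, control 5 gave 38, control 6 gave 33, DCHP 4 gave 69 and DCHP 5 gave 77. The replicate number as a block left 59 calls, and 52 with the length and GC correction as well. Same-numbered libraries deviated together with a correlation over 0.1 in 2 of 6 pairs, and 1 of 6 pairs matched best with its own number, so the numbers were not used as pairs. Of the 37 genes, 1 was called. This was 2 with DESeq2 and without DCHP 1 and DCHP 4, 0 at an FDR under 0.05 and without control 1 and DCHP 5 together, 3 with no fold threshold, and from 0 (without control 3, 4, 5 or 6 or DCHP 2 or 4) to 2 (without DCHP 1) with 1 library left out. Acsl4 remained the called gene under the block, where the adjusted p was 0.168 for Bdh1 and 0.151 for Acox2 (0.152 and 0.118 with the length and GC correction as well). The median log2 fold change over the 37 genes was -0.14, ran from -0.16 to -0.08 over the alternatives, and moved from its value above by less than the spread between livers (SD 0.11) in each. This SD is that of single livers and is not much smaller than the size of the median, so that the bound is wide.

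Values of single genes were compared over all alternatives, also those that changed only a threshold, where no log2 fold change could differ. Of 925 values of single genes, 44 changed sign, in 9 genes, each at an absolute value of at most 0.056 and an adjusted p of at least 0.781. With the length and GC correction these were Acsl1 (-0.026), Cpt2 (0.045), Etfdh (-0.028), Ehhadh (0.038), Hsd17b4 (0.034) and Pex11a (0.018), and with the block as well -0.043, 0.043, -0.036, 0.038, 0.038 and 0.036. Without control 1 and DCHP 5 together they were Acsl1 (-0.023), Acsl5 (-0.0013) and Cpt2 (0.0026). Without DCHP 1 and DCHP 4 they were Cd36 (0.015), Ehhadh (0.027), Hsd17b4 (0.011) and Pex11a (0.056). Hsd17b4 was also 0.0062 without a filter, 0.0096 with the CPM filter, 0.0058 by limma-voom and 0.0046 with the block. With 1 library left out the log2 fold changes ranged from -0.026 to 0.082 for Acsl5, -0.059 to 0.013 for Cpt2, -0.064 to 0.0020 for Hadhb, -0.077 to 0.043 for Ehhadh, -0.057 to 0.029 for Hsd17b4 and -0.14 to 0.056 for Pex11a.

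The smallest rounded count in a liver was 413 for genes other than Pdk4. The cause of each difference between settings was not tested.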

Other observations

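Levels of most of these genes varied little between animals of a group. The coefficient of variation of CPM over 6 livers had a median over the 37 genes of 9.79% in controls and 12.9% with paternal DCHP. Pdk4 was the most variable in both groups (42.0% and 52.0%), followed by Cd36 (33.8% and 38.7%). Hadhb was the least variable in controls (2.71%) and Hadha with paternal DCHP (5.23%). Per kilobase of all annotated exons joined, Fabp1 was the most abundant gene (6060 CPM per kb in controls), followed by Acaa1b (1637) and Acaa2 (603), and Pdk4 the least (1.90).

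The counting program is not known here, and transcripts that share sequence with other annotated genes have uncertain counts. The share of 31-base windows found in other genes was under 5% for 25 of the 37 genes and 10% or more for 9. It was highest for Etfb (68.0%) and Hadhb (65.6%), followed by Acaa1b (57.4%), Acaa1a (46.0%) and Acadvl (32.7%).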
